A study of Mus musculus with 9 samples.

Results

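The 6 cytokine genes followed here in the mouse lung, Il4, Il5, Il13, Il9, Il10 and Csf2, are grouped as cytokines that type 2 lymphocytes can make. The grouping does not say which cells made their RNA here. The 6 genes were chosen by gene name, and each name had 1 entry among the 55851 genes of the deposited expression table. RNA was sequenced from total lung cells of female C57BL/6J mice in 9 libraries, 3 in each of 3 groups, all with a time label of 7 weeks. The groups were DJ-1 knockout mice after OVA challenge (DJ-1 KO OVA; labelled DJ1_KO_OVA_263, DJ1_KO_OVA_266 and DJ1_KO_OVA_267), wild-type mice after OVA challenge (WT OVA; replicates 5, 6 and 9) and wild-type mice after PBS challenge (WT PBS; replicates 1, 2 and 3). OVA is ovalbumin, a protein used as an allergen in mice, and PBS is its saline control. The labels do not say how the knockout was made or whether each library came from 1 animal, so the p-values measure the spread between these libraries. None of the 9 libraries was a DJ-1 knockout lung after PBS, so in the comparison of DJ-1 KO OVA with WT PBS the genotype and the challenge cannot be told apart. Nor can DJ-1 KO OVA against WT OVA tell a genotype difference present before challenge from a changed response to OVA.

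The type 2 cytokines interleukin-4, interleukin-5 and interleukin-13 are made mainly by T helper 2 cells and by group 2 innate lymphoid cells (ILC2), and in part by mast cells, basophils and eosinophils. Interleukin-4 and interleukin-13 share a receptor chain, IL-4Rα, and act through STAT6: interleukin-4 drives T helper 2 differentiation and the switch to IgE, and interleukin-13 drives airway mucus production and hyperreactivity. Interleukin-5 is the growth and survival factor of eosinophils, interleukin-9 supports mast cells and mucus production, Csf2 encodes GM-CSF, a growth factor of myeloid cells and a maintenance factor of alveolar macrophages, and interleukin-10 restrains inflammation.

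The targeted gene was low in the libraries labelled as knockout. Park7, which encodes DJ-1, had 3.96, 7.29 and 3.97 FPKM (fragments per kilobase of transcript, scaled for library size, the deposited unit) in the DJ-1 KO OVA libraries, against 57.9, 53.1 and 60.5 FPKM in the WT OVA libraries and 49.6, 53.8 and 36.7 FPKM in the WT PBS libraries. Depth, as reads recovered from the deposited values, ran between 20812192 and 29080130 per library. The FPKM of all genes summed to between 308542 and 472548 per library in DJ-1 KO OVA, between 570483 and 602047 in WT OVA and between 392285 and 551459 in WT PBS, so a rescaling to equal sums raises the DJ-1 KO OVA values relative to WT OVA. The 9 lung epithelial marker genes were detected and summed to between 32130 and 145192 FPKM per library, as the tissue label says.

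Il4, Il13 and Il5 lie in 1 cluster on chromosome 11 (GRCm38, positions as deposited). Il4 (ENSMUSG00000000869) spans 53602982 to 53618669 on the minus strand, Il13 (ENSMUSG00000020383) spans 53631324 to 53634702 on the minus strand, and Il5 (ENSMUSG00000036117) spans 53720794 to 53725106 on the plus strand. Il4 and Il13 are 12.654 kb apart and Il13 and Il5 are 86.091 kb apart, with Rad50 in between. Csf2 (ENSMUSG00000018916, 54247271 to 54249667, minus strand) lies 522.164 kb beyond Il5 on the same chromosome. Il9 (ENSMUSG00000021538) is on chromosome 13, 56479277 to 56482246, minus strand, and Il10 (ENSMUSG00000016529) is on chromosome 1, 131019845 to 131024974, plus strand. Each of the 6 is a protein-coding gene, with a deposited gene length of 1227 bases for Il4, 1205 for Il13, 1537 for Il5, 536 for Il9, 800 for Csf2 and 1310 for Il10.

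The 250 bases before the RefSeq start (GRCm38.p6) of the 3 clustered genes are shown because GATA-3 and NFAT, the textbook activators of this locus, act in part through them. Capitals mark GATA motifs (AGATAA or AGATAG or TGATAA or TGATAG) and the NFAT core GGAAA, on either strand. Each sequence reads toward its gene, so Il13 is the minus strand of chr11:53634703-53634952, Il4 the minus strand of chr11:53618666-53618915 and Il5 the plus strand of chr11:53720544-53720793.
Il13: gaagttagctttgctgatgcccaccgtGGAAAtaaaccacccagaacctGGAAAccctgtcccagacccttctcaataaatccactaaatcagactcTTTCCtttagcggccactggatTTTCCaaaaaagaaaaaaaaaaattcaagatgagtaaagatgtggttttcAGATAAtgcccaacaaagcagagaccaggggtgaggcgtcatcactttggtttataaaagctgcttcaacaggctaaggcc
Il4: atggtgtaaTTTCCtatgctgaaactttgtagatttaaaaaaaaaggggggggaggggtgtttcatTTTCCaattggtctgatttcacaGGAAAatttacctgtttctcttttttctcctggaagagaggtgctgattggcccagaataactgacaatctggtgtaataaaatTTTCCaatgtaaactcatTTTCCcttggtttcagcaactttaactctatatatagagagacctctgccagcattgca
Il5: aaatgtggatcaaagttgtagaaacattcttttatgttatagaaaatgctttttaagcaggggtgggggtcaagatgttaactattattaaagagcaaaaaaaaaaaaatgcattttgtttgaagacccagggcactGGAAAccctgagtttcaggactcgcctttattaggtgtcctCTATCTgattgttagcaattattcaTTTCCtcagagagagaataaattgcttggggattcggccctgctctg
Il13 held 1 GATA motif, at -81 to -76 from the start, and 4 NFAT cores. Il5 held 1 GATA motif, on the opposite strand at -72 to -67, and 2 NFAT cores. Il4 held 5 NFAT cores and no GATA motif in this window, while its second RefSeq start (53617338) had a GATA motif at -80 to -75. Of 32817 promoters of the same length, 26.6% held a GATA motif, 55.6% held an NFAT core and 6.38% held at least 3 NFAT cores. A STAT motif (TTC, then 3 or 4 bases of any kind, then GAA) was found in 12.4% of the promoters and, among these 3, in Il4, at -167 to -158, where it overlaps an NFAT core. An AP-1 motif (TGAGTCA or TGACTCA) was found in 4.46% of the promoters and in none of the 3 windows shown.

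Il13 was the 1 cytokine gene of the 6 whose levels in DJ-1 KO OVA did not overlap those in WT OVA; of all tested genes, 18.4% lay higher in DJ-1 KO OVA without overlap. Its level was 6.78, 11.7 and 13.3 FPKM in DJ-1 KO OVA, against 2.81, 0.761 and 1.94 FPKM in WT OVA and 0.466, 0.404 and 0.243 FPKM in WT PBS. The lowest DJ-1 KO OVA library lay above the highest WT OVA library, and the lowest WT OVA library lay above the highest WT PBS library. These levels rest on 281, 334 and 393 reads in DJ-1 KO OVA, on 65, 21 and 46 reads in WT OVA, and on 12, 10 and 9 reads in WT PBS. The mean was 10.6 ± 3.42 FPKM in DJ-1 KO OVA, 1.84 ± 1.03 FPKM in WT OVA and 0.371 ± 0.115 FPKM in WT PBS (SD, n = 3 each). By its mean level, Il13 stood above 76.3% of the tested genes in DJ-1 KO OVA, above 39.1% in WT OVA and above 11.7% in WT PBS. At 9 reads, the exact 95% Poisson interval of WT PBS replicate 3 runs between 0.111 and 0.461 FPKM, which covers counting error alone.

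Il4, the inducer of T helper 2 differentiation, was lower than Il13 in each DJ-1 KO OVA and WT OVA library. It had 0.947, 2.66 and 2.499 FPKM in DJ-1 KO OVA, against 1.66, 0.605 and 0.829 FPKM in WT OVA and 0.267, 0.476 and 0.504 FPKM in WT PBS. The DJ-1 KO OVA and WT OVA ranges overlapped, because library DJ1_KO_OVA_263 lay below WT OVA replicate 5, while both OVA groups lay above every WT PBS library. Between 7 and 77 reads stood behind each of these values.

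Il5, the eosinophil factor, overlapped between the OVA groups. Its level was 2.78, 4.38 and 3.48 FPKM in DJ-1 KO OVA, against 2.44, 2.21 and 3.18 FPKM in WT OVA and 0.944, 2.22 and 0.529 FPKM in WT PBS. WT PBS replicate 2 was as high as the lowest WT OVA library, whereas all 3 DJ-1 KO OVA libraries lay above the WT PBS range. The antisense gene Gm12214, which overlaps Il5, had 0 FPKM in the 9 libraries.

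Il9, the mast cell and mucus factor, was at the limit of detection. DJ1_KO_OVA_267 had 2 reads, DJ1_KO_OVA_266 had 1, and the other 7 libraries had 0. A count of 0 allows up to 3 reads, which is between 0.163 and 0.292 FPKM depending on the library, so no level and no difference could be read for Il9 at this depth. The exact two-sided permutation test of its mean gave p = 0.4 between DJ-1 KO OVA and WT OVA, where the smallest p that 3 against 3 libraries allow is 0.1.

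Csf2 had its highest mean level in the WT OVA lungs. It had 7.63, 10.1 and 6.64 FPKM in DJ-1 KO OVA, against 13.8, 9.93 and 13.0 FPKM in WT OVA and 5.91, 10.05 and 4.47 FPKM in WT PBS. DJ1_KO_OVA_266 lay just above the lowest WT OVA library, and WT PBS replicate 2 lay above it too, so no group of the 3 was set apart from another. The antisense gene Gm12223, which overlaps Csf2, averaged 0.0579 FPKM, and the labels and headers do not say if reads were assigned by strand.

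Il10, the regulatory cytokine, had the highest mean level of the 6 in each group. It had 4.79, 16.1 and 15.3 FPKM in DJ-1 KO OVA, against 23.5, 11.7 and 21.0 FPKM in WT OVA and 16.9, 13.4 and 11.3 FPKM in WT PBS. The ranges of the 3 groups overlapped, and DJ1_KO_OVA_263 had the lowest Il10 of the 9 libraries. The order of the levels per length was Il10, Il13, Csf2, Il5, Il4 and Il9 in DJ-1 KO OVA, with overlapping ranges among the first 3. In WT OVA the order was Il10, Csf2, Il5, Il13, Il4 and Il9, where Il10 and Csf2 overlapped, as did Il5 with Il13 and Il13 with Il4. In WT PBS it was Il10, Csf2, Il5, Il4, Il13 and Il9, and there the ranges of Il4 and Il13 overlapped.

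**Figure D1:**
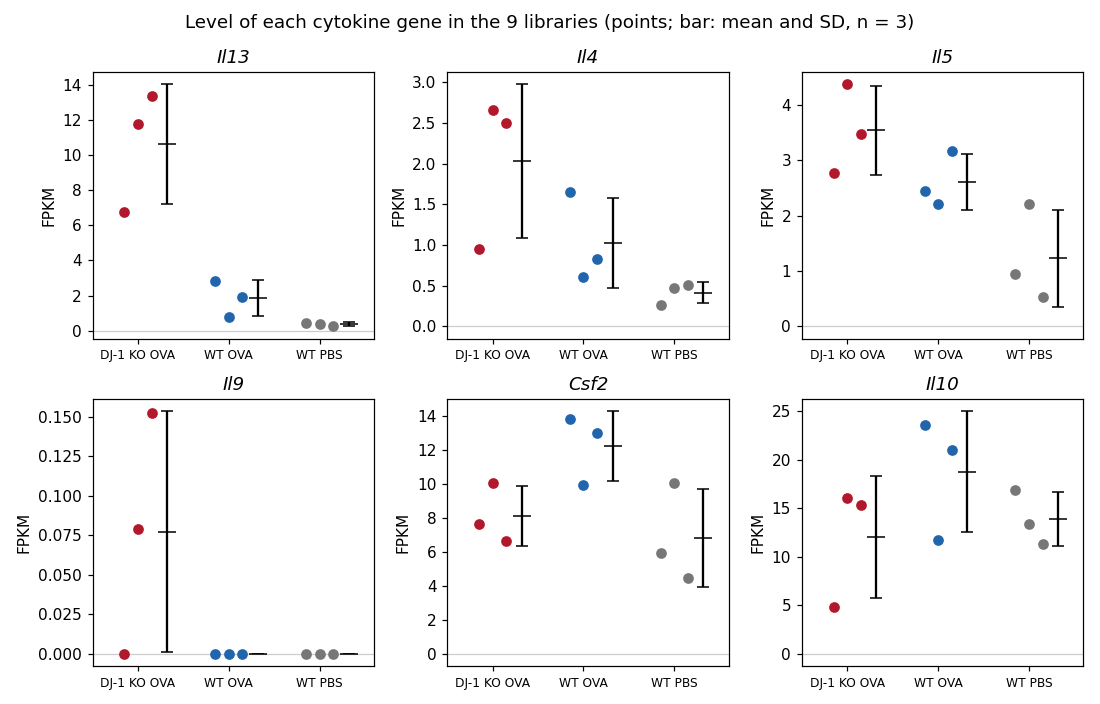
Level of the 6 cytokine genes (y axis, FPKM, linear) in the 9 libraries, by group (x axis: DJ-1 KO OVA, WT OVA, WT PBS). Points are single libraries and bars the mean and SD (n = 3). In the Il13 panel the 3 DJ-1 KO OVA libraries, at 6.78 to 13.3 FPKM, sit above the WT OVA libraries, at 0.761 to 2.81 FPKM, while in the Il10 panel the groups overlap.

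DJ-1 KO OVA and WT OVA were compared with limma on log2(FPKM + 0.5) over 17716 genes, with Benjamini-Hochberg adjustment and a threshold of 0.05. Il9 was below the filter of 0.2 FPKM on the mean and had no value in this fit. Il13 rose 4.95-fold in DJ-1 KO OVA against WT OVA (log2 difference 2.31, SE 0.35, 95% interval 1.52 to 3.09, adjusted p = 0.0072). On the plain FPKM scale, without the pseudocount, the ratio of the means was 5.78. Of the 5 tested cytokine genes, 1 was called higher and 0 lower, where 14.2% of all tested genes were called in this comparison, 5.93% higher and 8.24% lower. Il13 was also the 1 of the 5 with groups that did not overlap, against 18.4% of all genes not overlapping in that direction.

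Of the other 4 tested cytokine genes, 0 passed that threshold between the OVA groups in limma or in limma-voom, and 0 had an unadjusted p under 0.05 in limma. Among all 17716 tested genes, 6234 had an unadjusted p under 0.05 in limma. The log2 difference was 0.70 for Il4 (95% interval -0.04 to 1.45, adjusted p = 0.16) and 0.37 for Il5 (-0.35 to 1.09, adjusted p = 0.43). It was -0.57 for Csf2 (-1.19 to 0.05, adjusted p = 0.17) and -0.73 for Il10 (-1.67 to 0.20, adjusted p = 0.24). These intervals do not show that the 4 genes had the same level in both genotypes. In bulk RNA, fewer or more cells that make a cytokine and less or more RNA per cell cannot be told apart.

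The scale bears on how many cytokine genes are called. With the libraries rescaled to equal FPKM sums, the median log2 difference over all tested genes was 0.46 in DJ-1 KO OVA against WT OVA, and the share of called genes that were higher was 88.2% instead of 41.9%. On that scale Il13 had a log2 difference of 2.84 (adjusted p = 0.0014), Il4 of 1.14 (adjusted p = 0.029) and Il5 of 0.90 (adjusted p = 0.042), and 3 of the 5 genes were called. The calls over all genes grew as well, to 4435 higher and 596 lower of 17893, against 1051 higher and 1459 lower of 17716 without rescaling. Csf2 turned to 0.019 on that scale and Il10 stayed below 0, at -0.14, both not called. The Il13 difference exceeded the shift of the median on both scales. Il13 passed the threshold under each of the 18 alternative settings tried, with a log2 difference between 1.91 and 2.84 and an adjusted p of at most 0.039, reached when DJ1_KO_OVA_267 was left out.

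**Figure D2:**
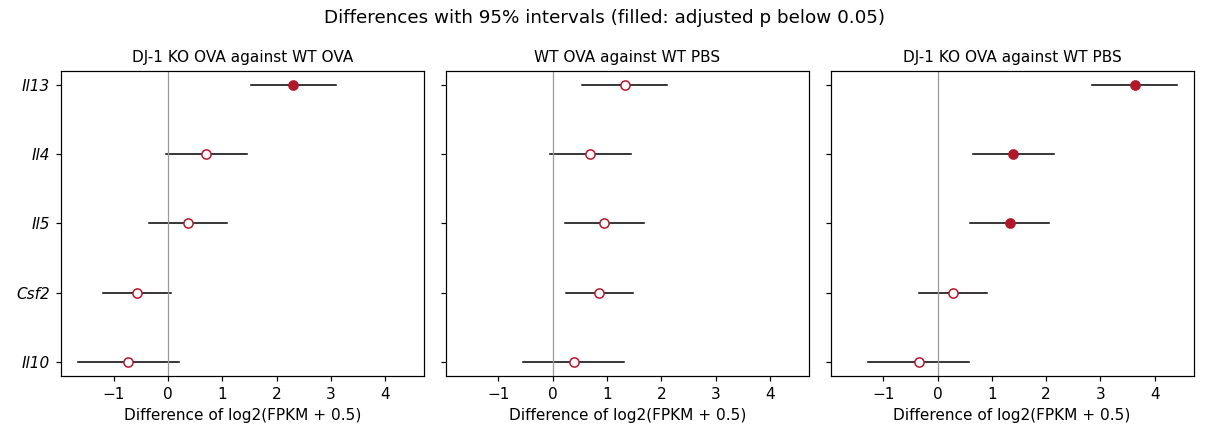
Difference of log2(FPKM + 0.5) (x axis) for the 5 tested cytokine genes (y axis) in the comparisons of DJ-1 KO OVA with WT OVA, of WT OVA with WT PBS and of DJ-1 KO OVA with WT PBS. Points are limma estimates, lines are 95% intervals, and filled points have an adjusted p below 0.05. In the first panel Il13, at 2.31, is the filled point.

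Ratios within a library do not depend on the scale. The ratio of Il13 to Il4 was 7.15, 4.42 and 5.34 in DJ-1 KO OVA, against 1.70, 1.26 and 2.34 in WT OVA and 1.75, 0.849 and 0.482 in WT PBS. For Il13 over Il5 the ratios were 2.44, 2.68 and 3.83 in DJ-1 KO OVA, 1.15, 0.343 and 0.611 in WT OVA, and 0.494, 0.182 and 0.459 in WT PBS. Relative to both of its cluster neighbours, Il13 was higher in every DJ-1 KO OVA library than in any WT library, while the WT OVA and WT PBS ranges overlapped. The ratio of Il13 to Il10 was 1.41, 0.731 and 0.872 in DJ-1 KO OVA, 0.119, 0.0649 and 0.0923 in WT OVA, and 0.0276, 0.0303 and 0.0214 in WT PBS, so that these 3 groups did not overlap. Il13 over Csf2 ran between 0.888 and 2.01 in DJ-1 KO OVA, between 0.0766 and 0.204 in WT OVA and between 0.0402 and 0.0789 in WT PBS. The ratio of Il5 to Il4, by contrast, ran between 1.39 and 2.93 in DJ-1 KO OVA, between 1.47 and 3.83 in WT OVA and between 1.05 and 4.66 in WT PBS, with overlap among the groups.

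**Figure D3:**
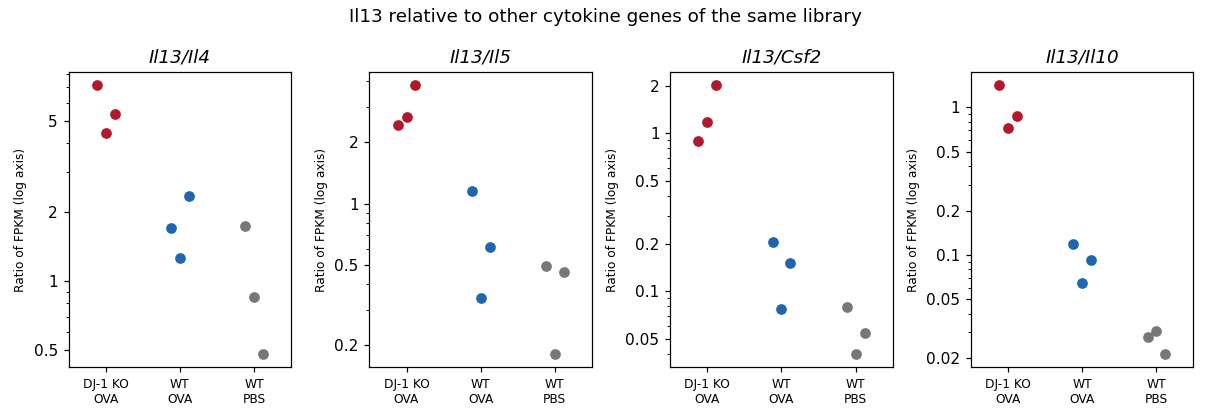
Ratio of the FPKM of Il13 to that of Il4, Il5, Csf2 and Il10 in the same library (y axis, log scale), by group (x axis), with 1 point per library. In the 4 panels the DJ-1 KO OVA libraries sit above the WT OVA libraries, for example at 4.42 to 7.15 against 1.26 to 2.34 for Il13 over Il4.

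The make-up of the cytokine transcripts differed with Il13. Out of the summed FPKM of the 6 genes, Il13 took 29.6%, 26.1% and 32.2% in the DJ-1 KO OVA libraries, against 6.35%, 3.01% and 4.86% in the WT OVA libraries and 1.90%, 1.53% and 1.42% in the WT PBS libraries. Il10 took 20.9%, 35.7% and 36.9% in DJ-1 KO OVA, against 53.2%, 46.5% and 52.7% in WT OVA and 69.0%, 50.4% and 66.4% in WT PBS. The sum itself did not separate the genotypes, at 22.9, 45.0 and 41.4 FPKM in DJ-1 KO OVA, 44.3, 25.2 and 39.9 FPKM in WT OVA and 24.5, 26.5 and 17.1 FPKM in WT PBS. In DJ1_KO_OVA_263, where the sum was lowest among the OVA libraries, the Il13 share was as high as in the other 2 DJ-1 KO OVA libraries.

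**Figure D4:**
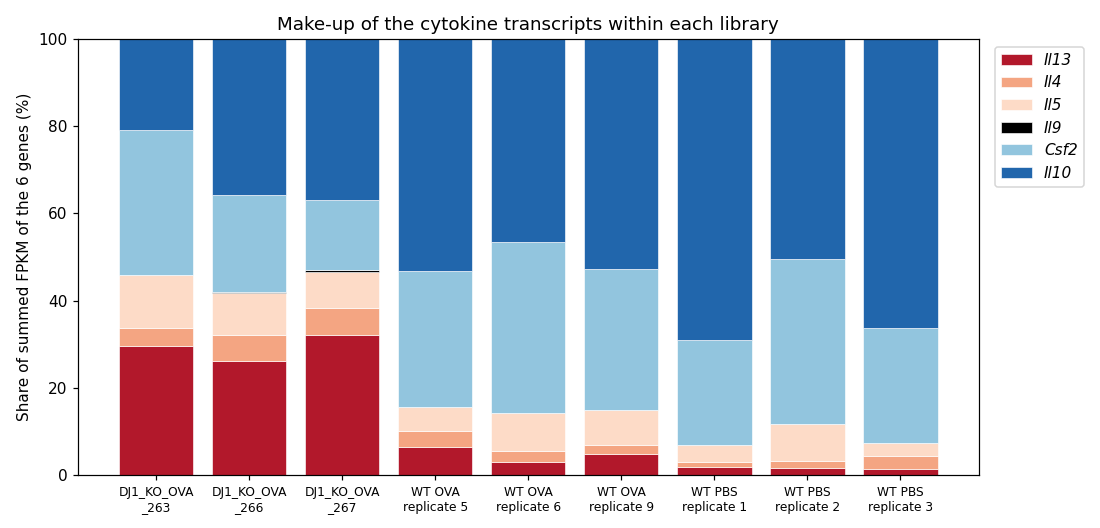
Share of each gene in the summed FPKM of the 6 cytokine genes (y axis, percent) in each of the 9 libraries (x axis, by group). The Il13 part, at the bottom of each bar, takes 26.1% to 32.2% in DJ-1 KO OVA, 3.01% to 6.35% in WT OVA and 1.42% to 1.90% in WT PBS.

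The effect of OVA challenge in wild-type lungs was not resolved for single cytokine genes. The log2 difference of WT OVA over WT PBS was 1.32 for Il13, 0.95 for Il5, 0.86 for Csf2, 0.69 for Il4 and 0.38 for Il10, on the log2(FPKM + 0.5) scale. The plain ratio of the means was 4.95 for Il13 and 2.48 for Il4. In limma, 3 of the 5 (Il13, Csf2 and Il5) had an unadjusted p under 0.05, but 0 passed after adjustment, at an adjusted p of 0.73 for each of the 3. With limma-voom on the recovered reads 0 passed as well. Among all tested genes 0.00564% were called here, which is 1 gene, and 6.47% had an unadjusted p under 0.05. The WT OVA values of Il13 and Il4 did not overlap those of WT PBS and lay above them, against 7.25% of all genes. Without WT OVA replicate 6, the lowest WT OVA library for Il13, the Il13 difference was 1.71 with an adjusted p of 0.17.

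Against WT PBS, the 3 clustered cytokine genes rose in DJ-1 KO OVA. This comparison shares its DJ-1 KO OVA libraries with the first and its WT PBS libraries with the second, so its values do not stand apart from theirs. In limma, Il13 was 12.4-fold higher (log2 difference 3.63, SE 0.35, adjusted p = 0.00058), Il4 was 2.63-fold higher (1.40, SE 0.34, adjusted p = 0.031) and Il5 was 2.51-fold higher (1.33, SE 0.32, adjusted p = 0.033). All 3 are on the log2(FPKM + 0.5) scale, which understates fold differences where levels are low, as in WT PBS. The plain ratio of the means was 28.6 for Il13, 4.89 for Il4 and 2.88 for Il5, and limma-voom gave Il13 a log2 difference of 4.79. Of the 5, 3 were called higher, against 4.07% of all genes in that direction and 8.54% in either, and the same 3 did not overlap between the groups, against 12.7% of all genes. Csf2 had a log2 difference of 0.29 (adjusted p = 0.54) and Il10 of -0.35 (adjusted p = 0.63).

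The call of Il13 in DJ-1 KO OVA against WT PBS held under each of the 18 alternatives, but those of Il4 and Il5 did not. Il4 missed the threshold without a filter (adjusted p = 0.095), without DJ1_KO_OVA_267 (0.13) and without WT PBS replicate 1 (0.12), 2 (0.084) or 3 (0.060). Il5 missed it without a filter (0.094), with these 2 groups fitted alone (0.072), without DJ1_KO_OVA_267 (0.11), without WT OVA replicate 5 (0.054) and without WT PBS replicate 1 (0.12) or 3 (0.080). Il10 changed sign, to 0.19, when DJ1_KO_OVA_263 was left out.

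Around the cytokines, 7 lists of genes, chosen with earlier results known, are read against the 14.2% of all tested genes called in DJ-1 KO OVA against WT OVA (5.93% higher and 8.24% lower). List counts in DJ-1 KO OVA against WT PBS are read against the 8.54% of all tested genes called there (4.07% higher and 4.47% lower). Of 11 receptor chains tested, 2 (18.2%) rose and 0 fell in DJ-1 KO OVA against WT OVA. In either direction that share was near the 14.2% of all genes, while 5.93% of all genes rose. With equal FPKM sums 7 were called higher, where 4435 of all 17893 tested genes were. The receptor chains had a median log2 difference of 0.47 beside 0.00 over all tested genes. Il13ra2, the decoy receptor of interleukin-13, had 1.15 ± 0.547 FPKM in DJ-1 KO OVA and 0.183 ± 0.107 FPKM in WT OVA (SD, n = 3 each), a ratio of the means of 6.30. On the log2(FPKM + 0.5) scale, where the pseudocount exceeds the WT OVA level, the rise was 2.35-fold (limma adjusted p = 0.018). Il9r, the interleukin-9 receptor chain, had 2.89 ± 1.18 FPKM in DJ-1 KO OVA and 1.02 ± 0.371 FPKM in WT OVA, a 2.20-fold rise (adjusted p = 0.026). The shared signalling chain Il4ra was not called, at 40.5 ± 10.9 FPKM in DJ-1 KO OVA and 29.6 ± 6.12 FPKM in WT OVA (adjusted p = 0.21). Against WT PBS, Il13ra2 and Il9r rose in DJ-1 KO OVA and Il10ra, the ligand-binding chain of the interleukin-10 receptor, fell, at 36.3 ± 11.9 FPKM in DJ-1 KO OVA and 81.2 ± 22.8 FPKM in WT PBS (adjusted p = 0.038).

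Of 12 JAK, STAT and feedback genes tested, 7 (58.3%) rose and 0 fell in DJ-1 KO OVA against WT OVA, with a median log2 difference of 0.82. Jak2, the kinase of the GM-CSF and interleukin-5 receptors, rose 2.51-fold, at 28.9 ± 9.998 FPKM in DJ-1 KO OVA and 10.8 ± 0.784 FPKM in WT OVA (adjusted p = 0.012). Stat5a, which acts downstream of those receptors, rose 1.94-fold (adjusted p = 0.023), and the STAT5-induced feedback gene Cish rose 2.69-fold (adjusted p = 0.035). Socs1, an inhibitor of JAK kinases, rose 2.01-fold (adjusted p = 0.037). Stat6, the factor activated by interleukin-4 and interleukin-13, was not called, at 39.5 ± 4.37 FPKM in DJ-1 KO OVA and 33.4 ± 1.13 FPKM in WT OVA (adjusted p = 0.42). Against WT PBS, Socs2, Jak2 and Cish rose in DJ-1 KO OVA and 0 of the 12 fell, where 4.07% of all tested genes rose and 4.47% fell.

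Epithelial alarmins act upstream of type 2 cytokines through receptors on T helper 2 cells and ILC2. Of 8 alarmin and alarmin receptor genes tested, 4 (50%) rose and 0 fell in DJ-1 KO OVA against WT OVA, with a median log2 difference of 0.60, while Il25 was below the filter. Il33, an alarmin that activates ILC2, had 86.3 ± 27.6 FPKM in DJ-1 KO OVA and 33.7 ± 0.613 FPKM in WT OVA, a 2.44-fold rise (adjusted p = 0.014). Its receptor gene Il1rl1 rose 3.06-fold, at 7.83 ± 3.92 FPKM in DJ-1 KO OVA and 2.09 ± 0.688 FPKM in WT OVA (adjusted p = 0.019). Il17rb, the interleukin-25 receptor chain, rose 2.81-fold with the pseudocount (adjusted p = 0.0033) and 5.01-fold by plain means, and Il7r, which is also a chain of the TSLP receptor, rose 1.77-fold (adjusted p = 0.047). Tslp itself was not called, at 0.472 ± 0.171 FPKM in DJ-1 KO OVA and 0.684 ± 0.127 FPKM in WT OVA (adjusted p = 0.43). The same 4 genes were the ones that rose in DJ-1 KO OVA against WT PBS, a comparison that shares the DJ-1 KO OVA libraries. In it, 4.07% of all tested genes rose.

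Of 13 transcription factors of type 2 lymphocytes, 5 (38.5%) rose and 0 fell in DJ-1 KO OVA against WT OVA, with a median log2 difference of 0.86. Gata3, the master factor of T helper 2 cells and ILC2, had 8.62 ± 3.66 FPKM in DJ-1 KO OVA and 1.85 ± 0.210 FPKM in WT OVA, a 3.67-fold rise (adjusted p = 0.0068). Irf4, needed for T helper 2 differentiation, had 19.4 ± 11.9 FPKM in DJ-1 KO OVA and 3.71 ± 0.863 FPKM in WT OVA, a 4.29-fold rise (adjusted p = 0.010). Bhlhe40 rose 2.22-fold (adjusted p = 0.031) and Nfatc2, which encodes an NFAT protein, rose 1.81-fold (adjusted p = 0.036). Against WT PBS, Gata3 and Irf4 rose in DJ-1 KO OVA and 0 of the 13 fell, where 4.07% of all tested genes rose and 4.47% fell.

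Genes that interleukin-4 and interleukin-13 are known to induce in airway epithelium, fibroblasts and macrophages had the highest median of the 7 lists described here. Of 22 tested, 12 (54.5%) rose and 0 fell in DJ-1 KO OVA against WT OVA, with a median log2 difference of 1.89. Postn, which encodes the matrix protein periostin, rose 9.85-fold with the pseudocount (adjusted p = 0.0020) and 15.5-fold by plain means. Slc26a4, an anion exchanger of mucus-producing epithelium, had 58.9 ± 4.84 FPKM in DJ-1 KO OVA and 4.91 ± 3.35 FPKM in WT OVA, a 13.1-fold rise (adjusted p = 0.0033). Ccl11, the eosinophil chemokine eotaxin-1, rose 3.85-fold (adjusted p = 0.0028), and Retnlb, a goblet cell product, rose 7.33-fold with the pseudocount (adjusted p = 0.0036) and 21.6-fold by plain means. In WT OVA against WT PBS, limma called 0 of the 22, 15 had an unadjusted p under 0.05, limma-voom called 0, and the 22 differences were all above 0, their median being 1.34. Without WT OVA replicate 6, 6 of the 22 were called, where 14 genes were called among all tested. In that comparison, limma and limma-voom also called 0 genes of each other list described here, and 2 of the 15 cytokines of other lineages, 1 receptor chain, 1 JAK, STAT and feedback gene, 1 alarmin gene, 0 transcription factors and 1 locus neighbour had an unadjusted p under 0.05. In DJ-1 KO OVA against WT PBS, 19 of the 22 rose, with a median log2 difference of 3.39, where 4.07% of all tested genes rose.

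Cytokines of other lineages had no common direction. Of 15 tested, 2 (13.3%) rose and 2 (13.3%) fell in DJ-1 KO OVA against WT OVA, with a median log2 difference of -0.29, which turned to 0.33 with equal FPKM sums and to 0.06 with quantile normalization. Il18, an inflammasome-processed cytokine of macrophages and epithelium, fell to 8.77 ± 1.97 FPKM in DJ-1 KO OVA, against 46.5 ± 6.85 FPKM in WT OVA (log2 difference -2.35, adjusted p = 0.0033). Il27, made by antigen-presenting cells, fell to 1.16 ± 0.801 FPKM in DJ-1 KO OVA, against 4.09 ± 2.24 FPKM in WT OVA (adjusted p = 0.037). Tnfsf11, which encodes RANKL, rose 2.47-fold (adjusted p = 0.034), and Lta, which encodes lymphotoxin-α, rose 1.59-fold (adjusted p = 0.046). Ifng, the defining cytokine of T helper 1 cells, was not called, at 4.44 ± 2.67 FPKM in DJ-1 KO OVA and 2.97 ± 1.08 FPKM in WT OVA (adjusted p = 0.60). Il17a was not called either, at 2.71 ± 1.25 FPKM in DJ-1 KO OVA and 2.38 ± 0.847 FPKM in WT OVA (adjusted p = 0.85). In DJ-1 KO OVA against WT PBS, Il18, Il27 and Ebi3, the partner of Il27, fell and Tnfsf11 rose. Among all tested genes 4.47% fell and 4.07% rose in that comparison.

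**Figure D5:**
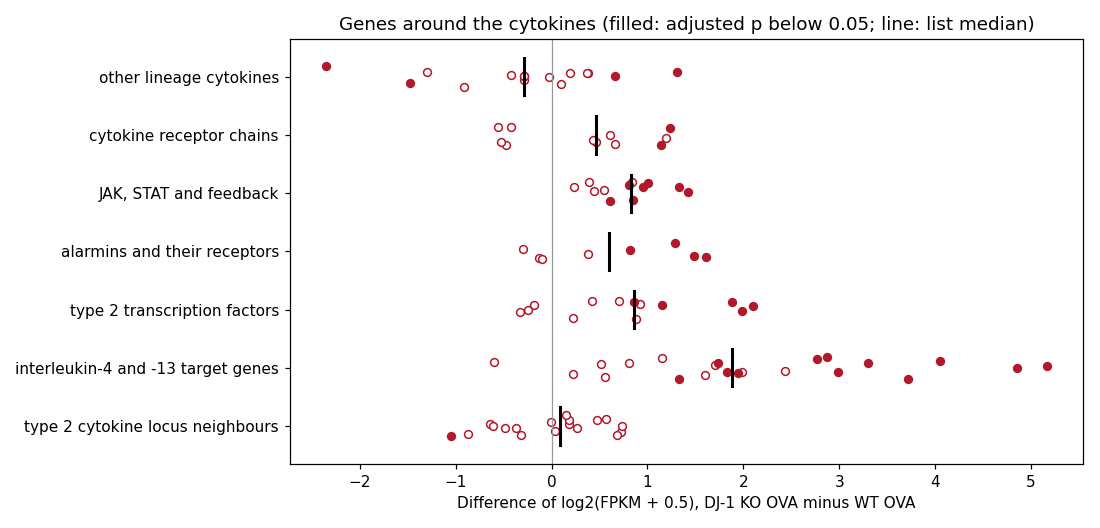
Difference of log2(FPKM + 0.5) of DJ-1 KO OVA minus WT OVA (x axis) for the tested genes of 7 lists around the cytokines (y axis). Points are single genes, filled where the adjusted p is below 0.05, and the black line is the list median, which is highest for the target genes of interleukin-4 and interleukin-13, at 1.89.

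These counts depended on single libraries and on the scale, as did the 2510 calls over all genes in DJ-1 KO OVA against WT OVA. Those numbered 1276, 5683 and 285 without DJ1_KO_OVA_263, DJ1_KO_OVA_266 and DJ1_KO_OVA_267. Without WT OVA replicate 5, 6 and 9 in turn they numbered 612, 451 and 475, and without WT PBS replicate 1 they numbered 1271. The number of genes higher in DJ-1 KO OVA than in WT OVA was smallest without DJ1_KO_OVA_267 for the target genes (5 in place of 12). It was smallest without WT OVA replicate 6 for the JAK, STAT and feedback genes (0 in place of 7) and for the alarmins and their receptors (1 in place of 4). JAK, STAT and feedback calls numbered 2 without DJ1_KO_OVA_267 or WT PBS replicate 1, 3 without WT OVA replicate 5 and 1 without WT OVA replicate 9. Alarmin calls numbered 2 without DJ1_KO_OVA_267 or WT OVA replicate 5 or 9. The transcription factor calls numbered 2 without DJ1_KO_OVA_267, any 1 of the WT OVA libraries or WT PBS replicate 1, 3 without DJ1_KO_OVA_263, and 8 without DJ1_KO_OVA_266. Cytokines of other lineages had 0 higher and 1 lower without DJ1_KO_OVA_263, DJ1_KO_OVA_267, any 1 of the WT OVA libraries or WT PBS replicate 1, and 2 higher and 4 lower without DJ1_KO_OVA_266. Receptor calls numbered 0 without DJ1_KO_OVA_267 or WT OVA replicate 5 or 6, and 5 without DJ1_KO_OVA_263. With equal FPKM sums, 19 target genes, 11 JAK, STAT and feedback genes, 9 transcription factors, 7 receptor chains and 5 alarmin genes were called higher, where 88.2% of all calls were higher. On that scale 4435 of all 17893 tested genes were called higher. Against WT PBS, the call of Il10ra was lost without DJ1_KO_OVA_263, DJ1_KO_OVA_267, any 1 of the WT OVA libraries, or WT PBS replicate 1 or 3. There the JAK, STAT and feedback calls numbered 1 without WT PBS replicate 1 or 2, the transcription factor calls numbered 6 higher and 1 lower without DJ1_KO_OVA_266, and 1 cytokine of another lineage was called lower in place of 3 without DJ1_KO_OVA_267 or any 1 of the WT PBS libraries. The 1513 calls over all genes in that comparison became 483 without DJ1_KO_OVA_267 and 3888 without DJ1_KO_OVA_266. They became 443, 543 and 1008 without WT PBS replicate 1, 2 and 3.

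Around the chromosome 11 cluster, the tested neighbours of the cytokine genes had a median near that of all genes. Of 18 other genes within 250 kb of Il4, Il5, Il13 or Csf2 that passed the filter, 0 rose and 1 fell in DJ-1 KO OVA against WT OVA, with a median log2 difference of 0.09, and limma-voom called 1 higher and 1 lower. The gene that fell was the long non-coding RNA A430108G06Rik, at 0.186 ± 0.126 FPKM in DJ-1 KO OVA and 0.941 ± 0.424 FPKM in WT OVA (adjusted p = 0.032). Rad50, a DNA repair gene that holds the locus control region of this cluster, had 4.05 ± 1.27 FPKM in DJ-1 KO OVA and 2.17 ± 0.151 FPKM in WT OVA (log2 difference 0.73, adjusted p = 0.055). Kif3a, a cilium motor gene next to Il4, had 3.05 ± 1.04 FPKM in DJ-1 KO OVA and 2.02 ± 0.547 FPKM in WT OVA (adjusted p = 0.21). Irf1, on the far side of Il5, had 32.8 ± 3.50 FPKM in DJ-1 KO OVA and 46.4 ± 8.98 FPKM in WT OVA (adjusted p = 0.12). Without DJ1_KO_OVA_266, 4 neighbours were called higher and 3 lower, and with equal FPKM sums 4 higher and 1 lower. Among all genes, 5683 were called without DJ1_KO_OVA_266 and 5031 with equal FPKM sums, in place of 2510. In DJ-1 KO OVA against WT PBS limma called 0 of the 18, 2 had an unadjusted p under 0.05, and limma-voom called 0. Among all 17716 tested genes, limma called 8.54% there and 4674 had an unadjusted p under 0.05.

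Markers of the cells that can make these cytokines were higher in part. The 11 T cell markers summed to 420, 170 and 199 FPKM in DJ-1 KO OVA, against 137, 92.3 and 151 FPKM in WT OVA and 105, 147 and 104 FPKM in WT PBS, and 6 of the 11 rose and 0 fell in DJ-1 KO OVA against WT OVA. Among all tested genes, 5.93% rose and 8.24% fell in that comparison. Markers of T helper 2 cells and ILC2, 8 in all, of which Gata3, Il1rl1 and Il17rb also stand in the lists above, summed to between 52.4 and 98.8 FPKM in DJ-1 KO OVA, between 26.7 and 57.8 FPKM in WT OVA and between 20.6 and 31.4 FPKM in WT PBS. Of the 7 tested, 5 rose and 0 fell in DJ-1 KO OVA against WT OVA, and 2 rose without DJ1_KO_OVA_267. The T cell calls numbered 0 without DJ1_KO_OVA_267 or WT OVA replicate 6 or 9, 1 without WT OVA replicate 5, 2 without DJ1_KO_OVA_263 and 3 without WT PBS replicate 1. Calls over all genes also dropped from 2510, to 285 without DJ1_KO_OVA_267 and to 451, 475 and 612 without WT OVA replicate 6, 9 and 5. They numbered 1276 without DJ1_KO_OVA_263 and 1271 without WT PBS replicate 1. Per 100 FPKM of the T helper 2 and ILC2 markers, Il13 had 12.9, 16.0 and 13.5 FPKM in DJ-1 KO OVA, against 6.32, 2.85 and 3.36 FPKM in WT OVA and 2.26, 1.29 and 1.15 FPKM in WT PBS. That separation depended on which markers were summed. Klrg1 alone made up 26.01% to 36.5% of the marker sum in DJ-1 KO OVA and 61.3% to 67.9% in WT OVA, at 14.6, 26.7 and 25.7 FPKM in DJ-1 KO OVA, against 28.6, 16.4 and 39.3 FPKM in WT OVA. Per 100 FPKM of the other markers, a choice made after seeing the data, Il13 had 17.9, 25.2 and 18.2 FPKM in DJ-1 KO OVA, against 17.8, 7.36 and 10.4 FPKM in WT OVA, so that the ranges nearly met. Set against single markers, Il13 overlapped between DJ-1 KO OVA and WT OVA for 4 of the 8 (Gata3, Il1rl1, Il17rb and Ccr4) and lay higher in DJ-1 KO OVA for 3 (Klrg1, Ccr8 and Hpgds). The eighth, Ptgdr2, was at 0 in some libraries. The ratio of Il13 to Gata3 was 0.809, 2.30 and 1.07 in DJ-1 KO OVA, against 1.61, 0.442 and 0.926 in WT OVA. Per 100 FPKM of the T cell markers, Il13 had 1.61, 6.89 and 6.70 FPKM in DJ-1 KO OVA, against 2.04, 0.824 and 1.28 FPKM in WT OVA and 0.443, 0.275 and 0.233 FPKM in WT PBS, so DJ1_KO_OVA_263 lay inside the WT OVA range. Il4 and Il5 per 100 FPKM of the T helper 2 and ILC2 markers overlapped between DJ-1 KO OVA and WT OVA. The part of cell numbers in the Il13 difference was not tested.

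Markers of other cell types differed in part. In DJ-1 KO OVA against WT OVA, limma called 5.93% of all tested genes higher and 8.24% lower. Of all 17716 tested genes, 6234 had an unadjusted p under 0.05 in that fit. The 10 tested mast cell and basophil markers had 0 calls in DJ-1 KO OVA against WT OVA by limma and by limma-voom, with 0 under an unadjusted p of 0.05, and the 12 listed summed to between 51.5 and 59.6 FPKM in DJ-1 KO OVA, 53.3 and 70.1 FPKM in WT OVA and 75.8 and 86.9 FPKM in WT PBS. The 5 tested eosinophil markers had 0 calls by both tools, with 2 under an unadjusted p of 0.05, and the 6 listed summed to between 15.3 and 51.7 FPKM in DJ-1 KO OVA, 21.5 and 27.7 FPKM in WT OVA and 15.4 and 28.5 FPKM in WT PBS. Epx, which encodes eosinophil peroxidase, was at or below 0.0571 FPKM in each library. Neutrophil markers summed to between 1375 and 4354 FPKM in DJ-1 KO OVA, 12937 and 19183 FPKM in WT OVA and 8384 and 24453 FPKM in WT PBS, with 4 of 6 lower in DJ-1 KO OVA than in WT OVA. B cell markers summed to between 91.4 and 228 FPKM in DJ-1 KO OVA, 277 and 369 FPKM in WT OVA and 306 and 355 FPKM in WT PBS, with 3 of 6 lower. Lung epithelial markers had 3 of 9 lower, macrophage markers had 2 of 6 higher and 1 lower, and the 5 endothelial markers had 0 calls by both tools, with 0 under an unadjusted p of 0.05. With 1 library left out, lower calls numbered 1 to 5 for neutrophil, 0 to 4 for B cell and 1 to 4 for lung epithelial markers. Macrophage markers then had 1 to 2 higher and 1 lower. Calls over all genes ran between 285 and 5683 in these fits, in place of 2510. The part of these marker differences in the cytokine values was not tested.

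Among 11699 candidate genes, those whose log2(FPKM + 0.5) followed each cytokine gene most closely over the 9 libraries are given as a description, since the libraries form 3 groups and a shared group difference raises the correlation. Il13 was followed by B4galnt4, the eotaxin gene Ccl11 and Prps1, each with a Pearson coefficient of 0.99, and 185 candidates were above 0.9. Il4 was followed by Prg2, an eosinophil granule protein gene (0.97), Awat1 (0.96) and Tnfrsf4, which encodes the T cell costimulator OX40 (0.95). Prg2 averaged 10.2 FPKM in DJ-1 KO OVA, 2.497 FPKM in WT OVA and 0.289 FPKM in WT PBS, and Tnfrsf4 averaged 24.3 FPKM in DJ-1 KO OVA, 11.1 FPKM in WT OVA and 4.58 FPKM in WT PBS. Il5 was followed by Morf4l2 (0.98), Nudcd2 (0.97) and Prdx3 (0.97), Csf2 by H2afz (0.98), Mrpl35 (0.96) and Kcne3 (0.96), and Il10 by Dnase1l1 (0.97), Hexa (0.95) and Cd40 (0.95). With 3 genes kept for each, the 5 cytokine genes shared none, which does not show unlike patterns. Between the cytokine genes themselves, the Pearson coefficient was 0.91 for Il4 with Il13, 0.79 for Il13 with Il5 and 0.74 for Il4 with Il5. The other pairs ran between -0.08 (Il13 with Il10) and 0.67 (Il5 with Csf2), with 0.20 for Il13 with Csf2.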

How the data were processed

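Per the labels' protocols, RNA was taken up in TRIzol and made into TruSeq libraries (9 in all). Trimmomatic, HISAT2, HTSeq and GRCm38.p6 are named in the submitters' processing notes; no source used here gives their versions, settings or strand use. The deposited table holds FPKM per gene, made by the authors. FPKM times gene length gave whole reads (within 0.01 reads) for 100% of values, and the library sizes behind the FPKM matched median-of-ratios size factors.

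The test was limma 3.58.1 (R 4.3.3) with a mean-variance trend on log2(FPKM + 0.5), over the 17716 genes whose mean FPKM reached 0.2, all 3 groups in 1 fit (6 residual degrees of freedom), two-sided, with Benjamini-Hochberg adjustment over all tested genes and a threshold of 0.05. Fold changes are on that scale and understate the differences of low genes. The fit was also run on simulated reads, with 1 common spread for all genes and changes only in genes averaging 1 FPKM or more. That run did not cover changes in lower genes or shifts of scale between groups. Alternatives were other pseudocounts, filters and scalings, no trend, limma-voom on the recovered reads, 2 groups alone, and each library left out. Poisson intervals cover counting error only.

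The cytokine genes, gene lists and marker lists were chosen with earlier results of these data known. Named from each list were up to 4 called genes with the smallest p, or up to 2 where none was called, and for each cytokine the 3 genes of most like pattern among genes averaging 1 FPKM or more. Il4ra, Stat6, Tslp, Ifng, Il17a and Epx fall outside that rule and were named after their values were seen. Promoters are from RefSeq (GRCm38.p6) and matched 5 of the 6 genes by name.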

Additional observations from a re-analysis of the deposited data

How the results depend on the processing

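No paired analysis was possible because replicates 1 to 3, 5, 6, 9 and the DJ-1 KO OVA library numbers do not recur across groups.

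Without a filter, 1 cytokine gene in place of 3 was called in DJ-1 KO OVA against WT PBS, and leaving out single libraries gave 1 to 3. With equal FPKM sums, 3 in place of 1 were called in DJ-1 KO OVA against WT OVA. For Csf2 in DJ-1 KO OVA against WT OVA equal FPKM sums gave 0.019 in place of -0.57, and Il10 in DJ-1 KO OVA against WT PBS was 0.19 in place of -0.35 without DJ1_KO_OVA_263. Other log2 differences of the cytokine genes kept their sign under the alternatives run.

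Over all genes, DJ-1 KO OVA against WT OVA gave 2510 calls, 645 without a filter, 5031 with equal FPKM sums, 1330 with 2 groups only, 1276, 5683 and 285 without DJ1_KO_OVA_263, DJ1_KO_OVA_266 and DJ1_KO_OVA_267, and 451 (without WT OVA replicate 6) to 2497 (without WT PBS replicate 3) without 1 WT library. DJ-1 KO OVA against WT PBS gave 1513 calls, 669 without a filter, 782 with 2 groups only, 3888 without DJ1_KO_OVA_266, 483 without DJ1_KO_OVA_267, and 443 (without WT PBS replicate 1) to 1217 (without WT OVA replicate 6) without 1 WT library. WT OVA against WT PBS gave 1 call, 2 without a filter, 0 with a pseudocount of 0.1, a filter of mean FPKM 1, equal FPKM sums, quantile normalization, limma-voom or 2 groups only, and 0 to 14 (without WT OVA replicate 6) when 1 library was left out. The share of higher calls in DJ-1 KO OVA against WT PBS was 69.2% with equal FPKM sums and 47.7% without, with a median shift of 0.24, against -0.22 in WT OVA against WT PBS. The cause of these shifts was not tested.

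Depth limits Il9, with at most 2 reads per library, and Il4 and Il13 in WT PBS, with 7 to 19 reads per library.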
